A study of Caenorhabditis elegans with 4 samples.

Results

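The peaks on chromosome II were taken from a chromatin immunoprecipitation sequencing (ChIP-seq) study of a GFP-tagged transcription factor in Caenorhabditis elegans. They are all the regions of the authors' combined peak list that lie on that chromosome, 764 of 6333. One of them is wider than 20 kb and is described apart, which leaves 763. The study had 2 samples precipitated with anti-GFP and 2 samples of input (DNA from the same kind of chromatin, kept before immunoprecipitation), all from hermaphrodite third-stage (L3) larvae of strain OP241 grown at 20 degrees Celsius. Every sample therefore carried the same alleles: the unc119(ed3) mutation and wgIs241, a transgene with ceh-38 tagged by TY1, EGFP and FLAG together with unc119. The transgene was introduced by bombardment, the strain was outcrossed 3 times, and the tagged protein is described in the labels as following the ceh-38 expression pattern. Whole larvae were used, so the cells in which a region was bound are not known. The sample titles name CEH-28 in place of CEH-38, and the protein is called the tagged factor here.

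CEH-38 belongs to the ONECUT class of homeodomain proteins, which bind DNA through a cut domain and a homeodomain and are known in C. elegans for roles in neuronal gene expression. CEH-28 is an NK-2 class homeodomain protein. Autosomes of this worm, chromosome II among them, have a gene-dense centre with low recombination and arms that are richer in repeats and recombine more. A transcription factor peak is a stretch where immunoprecipitated DNA was called above background, and its −log10 q rises with the confidence of the call. RefSeq places ceh-38 on chromosome II, ceh-28 on X and unc-119 on III. That gene table uses the WBcel235 assembly and not the WS180 build of the peak lists, so gene positions were not set against the peaks.

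The replicate 1 list held 476 peaks on chromosome II and the replicate 2 list 306. These were 11.7% and 10.7% of their lists, and the combined peaks were 12.1% of theirs. Without read counts in the lists, sequencing depth is unknown. Nothing in the labels tells whether the replicates were separate worm cultures, and their differences may be technical. With 2 ChIP samples and input not analysed here, no background level could be set beside the peaks.

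Peaks on chromosome II were sparse. The combined list had 50.1 peaks per Mb of the 15.3 Mb they spanned, against 47.8 to 93.6 per Mb on the other 5 chromosomes. Replicate 1 had 31.2 per Mb, against 27.3 to 67.9 elsewhere, and replicate 2 had 20.0 per Mb, against 23.1 to 47.1. Chromosome II was thus the sparsest chromosome in replicate 2 and the second sparsest, after X, in the other lists.

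Along the chromosome the density was lowest near the left end. The 15 full windows of 1 Mb held 50 ± 9.67 combined peaks (SD over windows), with a median of 52. The densest were those from 5 to 6 Mb (66 peaks), 6 to 7 Mb (62) and 13 to 14 Mb (60). The sparsest were those from 1 to 2 Mb (30), 0 to 1 Mb (36) and 2 to 3 Mb (42). The windows from 5 to 6 Mb and from 13 to 14 Mb were also the densest in a replicate. From 5 to 6 Mb there were 42 replicate 1 peaks and 32 replicate 2 peaks, and from 13 to 14 Mb there were 45 and 25. The window from 1 to 2 Mb was the lowest in both replicates, with 15 peaks in replicate 1 and 11 in replicate 2.

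**Figure D1:**
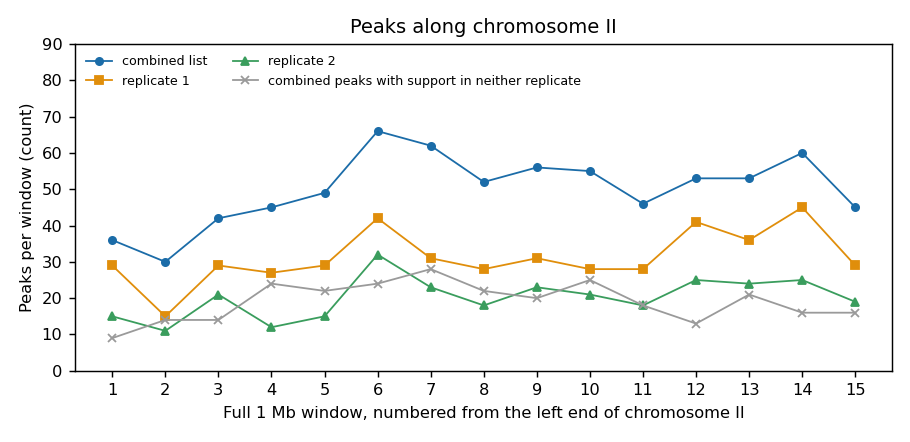
Peaks per full 1 Mb window of chromosome II (count), with windows numbered from the left end, in the combined list, each replicate list and the combined peaks that overlap neither replicate. The combined count is 30 in the second window and 66 in the sixth, and both replicates have their lowest count in the second window.

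The stretch between 1 and 2 Mb held the first and the third longest interval between neighbouring combined peaks. No combined or replicate peak lay between 1435267 and 1663551 (228.3 kb), nor between 1663876 and 1819909 (156.0 kb). A lone peak of unsupported signal separated these intervals. The second longest ran from 8226833 to 8429261 (202.4 kb), also with no peak in either replicate. Whether these stretches could be mapped by the reads was not tested.

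Arms and centre were compared as the first and last 25% of the spanned length, called outer, and the 50% between them, called central, in place of published arm boundaries. The outer parts of chromosome II held 346 of 763 combined peaks (45.3%, exact 95% interval 41.8 to 49.0), against 49.2% of all combined peaks in the outer parts of their own chromosomes. The share was below that of the length (50%) by a two-sided exact binomial test (adjusted p = 0.0196). The call did not hold in the single lists. Replicate 1 had 50.5% of its peaks in the outer parts and replicate 2 had 48.2% (exact binomial test, p = 0.854 and p = 0.567). It also did not hold with 1 peak kept per group of neighbours, at 48.4% (exact binomial test, p = 0.496).

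The low outer share came with unequal ends. With the length cut into 4 equal parts, the left outer part held 36.4 combined peaks per Mb and the right outer part 54.3, whereas the left and right central parts held 58.7 and 50.6. Replicate 1 had 24.6 per Mb in the left outer part and 38.3 in the right, and replicate 2 had 14.7 and 23.8. In both replicates the right outer part was the densest of the 4 and the left the sparsest. In the combined list the densest was the left central part, from 3816806 to 7632427, where 97 of 224 peaks (43.3%) had no support. That share was 37.4% in the left outer part, 38.9% in the right central part and 32.9% in the right outer part. Over all combined peaks it was 35.7%. The difference between the ends was not tested.

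The most significant peaks lay mainly in the outer parts, and mostly in the right one. Of the 76 combined peaks that made up the 10% with the lowest q, 54 (71.1%, exact 95% interval 59.5 to 80.9) were outer, against 292 of the other 687 (42.5%, 38.8 to 46.3). The difference passed Fisher's exact test (adjusted p = 1.82e-05). Of these 54, 39 lay in the right outer part and 15 in the left. The class ended at a −log10 q of 29.64, with the next peak at 29.55, and all 76 peaks had support in both replicates. Replicate 1 gave 35 of 48 (72.9%) in its strongest 10%, against 48.0% of the rest, and replicate 2 gave 22 of 30 (73.3%), against 45.5% (Fisher's exact test, p = 0.00123 and p = 0.00392). The same direction was thus seen in each list. Where only peaks supported by both replicates were kept, the outer shares were 18 of 26 (69.2%) in the strongest 10% and 48.0% in the rest, and the call was lost (Fisher's exact test, p = 0.0609). Combined peaks with a −log10 q of 5 to 10 had the lowest outer share (100 of 253, 39.5%).

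**Figure D2:**
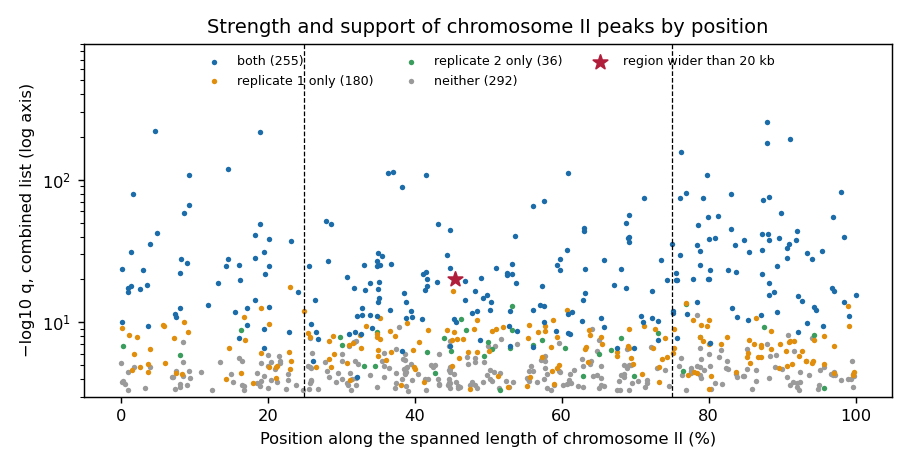
The −log10 q of each combined peak (log axis) against its position along the spanned length of chromosome II (%), coloured by replicate support with the number of peaks in brackets, and dashed lines at 25% and 75%. Of the 33 peaks above 50, 23 lie outside the dashed lines, 7 on the left and 16 on the right. The star at 45.5% marks the wide region.

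Among combined peaks that both replicates supported, the 10 most significant had −log10 q values from 111.4 to 255.4, with a median of 170.2. They ranged from 58.0 to 165.6 in replicate 1 and from 24.3 to 157.0 in replicate 2, and replicate 1 was higher at 10 of 10. The strongest was the region from 13413576 to 13414895 (1320 bp), with replicate values of 165.6 and 157.0 and a combined value of 255.4. Its right-hand neighbour, from 13416734 to 13418864, also belonged to the 10, with 119.6, 106.4 and 182.8 in the same order. These neighbours lay within the right outer part, as did the region from 13898481 to 13900406 (110.5, 62.0 and 192.5) and that from 11634020 to 11637814 (73.8, 68.3 and 157.7).

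In the left outer part the strongest was the region from 723380 to 724761 (1382 bp), with replicate values of 149.8 and 107.6 and a combined value of 220.2. Next came the region from 2900077 to 2901752 (137.5, 96.5 and 215.8) and that from 2224236 to 2225992 (69.1, 54.4 and 118.6). The remaining 3 of the 10 were central. They ran from 5660483 to 5662440 (58.3, 49.5 and 113.0), from 9282584 to 9286008 (58.0, 24.3 and 111.7) and from 5543242 to 5544447 (59.5, 57.0 and 111.4). The region from 9282584 covered 2 peaks of each replicate, whereas 8 of the others matched a single peak in both.

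Some of the strongest replicate signal on chromosome II had no combined peak. The region from 3067067 to 3071800 had the lowest q of replicate 1 on the chromosome, with a −log10 q of 314.5, and its nearest combined peak was 4910 bp away. Replicate 2 had a peak there from 3067002 to 3069133 at 161.9. The region from 2885422 to 2886800 had 245.1 in replicate 1 and 161.7 in replicate 2, again with no combined peak. Both regions were thus called in both replicates and lay in the left outer part.

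Another pair of regions was called in replicate 2 alone. One ran from 12300169 to 12304200 (4032 bp) with a −log10 q of 317.9, the lowest q of replicate 2 on the chromosome, and the other from 12254950 to 12257689 (2740 bp) with 249.2. Neither overlapped a replicate 1 or a combined peak, although their values were above that of every replicate 2 peak on chromosome II that had a combined peak, the highest of which was 157.0. Apart from such regions, replicate peaks without a combined peak were few, and those of replicate 1 were mostly weak. In replicate 1 they numbered 21 of 476, of which 18 had a −log10 q of at most 5 and 2 were above 100. In replicate 2 they numbered 7 of 306, of which 4 were above 100, 2 lay between 5 and 100 and 1 was at most 5. A ranking of chromosome II by the combined list alone omits these strong regions.

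Support in both replicates was lower on chromosome II than elsewhere. Both replicates had an overlapping peak at 255 of the 763 combined peaks (33.4%, exact 95% interval 30.1 to 36.9), against 2174 of 5569 (39.0%, 37.8 to 40.3) on the other chromosomes. Over all combined peaks the share was 38.4%. The difference passed Fisher's exact test (adjusted p = 0.00675), and the share was below the range of the other 5 chromosomes taken singly (35.1% to 42.1%). Another 180 (23.6%) overlapped replicate 1 only, 36 (4.72%) overlapped replicate 2 only and 292 (38.3%) overlapped neither. Over all combined peaks these shares were 20.9%, 5.04% and 35.7%. On the other 5 chromosomes taken singly they ranged from 14.2% to 23.0%, from 2.01% to 7.93% and from 29.6% to 40.8%. The share with support in neither was thus within the range of single chromosomes.

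The lower support was seen with replicate 2 and less with replicate 1. A replicate 2 peak was present at 38.1% of the chromosome II peaks, against 44.1% elsewhere (Fisher's exact test, p = 0.00183). A replicate 1 peak was present at 57.0%, against 59.6% (Fisher's exact test, p = 0.182). Whether the replicates differed in this was not tested. With every list limited to its more significant 50%, the direction turned, with 40.7% on chromosome II and 39.6% elsewhere (Fisher's exact test, p = 0.688).

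Support followed the strength of the peak closely. Only 1 of the 270 chromosome II peaks with a −log10 q of at most 5 had support in both replicates (0.370%, exact 95% interval 0.00938 to 2.05), against 0.541% elsewhere. Between 5 and 10 the share was 13.0% of 253, against 19.1% elsewhere, and between 10 and 20 it was 83.5% of 115, against 82.6%. Above 20 it was 92 of 92 up to a value of 50, against 595 of 596 elsewhere. Beyond 50 it was 33 of 33, against 319 of 319. The shares on chromosome II and elsewhere thus lay furthest apart among peaks between 5 and 10. Weak peaks also made up more of chromosome II, with 270 of 763 at most 5, against 1665 of 5569 elsewhere. The part of this mix of strengths in the lower support was not tested.

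The replicates themselves were compared on chromosome II without the combined list. Replicate 2 had a peak at 273 of the 476 replicate 1 peaks (57.4%, exact 95% interval 52.8 to 61.8), against 62.9% on the other chromosomes. Replicate 1 had a peak at 267 of the 306 replicate 2 peaks (87.3%, 83.0 to 90.8), against 87.0%. The 273 pairs had centres a median of 48 bp apart. Their −log10 q values had a Spearman's rho of 0.78, a description across peaks that share the same libraries. Replicate 1 was the more significant at 185 pairs (67.8%), and at 67.8% of the pairs elsewhere. It was the wider at 107 (39.2%), against 41.2% elsewhere. Some replicate 2 peaks were paired with more than 1 replicate 1 peak, so the pairs are not all separate.

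**Figure D3:**
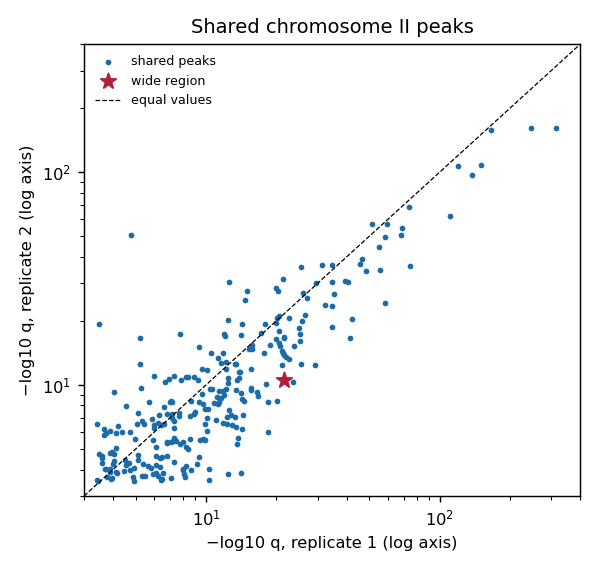
The −log10 q of the 273 replicate 1 peaks of chromosome II that overlap a replicate 2 peak, in replicate 1 (x) and replicate 2 (y), both on log axes, with the line of equal values. Most points, 185 of 273, lie on the replicate 1 side of the line, and the star marks the wide region at 21.6 and 10.5.

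Support was also compared between outer and central peaks. Support in both replicates was found at 128 of 346 outer peaks (37.0%, exact 95% interval 31.9 to 42.3) and 127 of 417 central peaks (30.5%, 26.1 to 35.1; adjusted p = 0.0900 by Fisher's exact test, not past the threshold). Peaks with support in neither replicate made up 34.7% of the outer and 41.2% of the central peaks. The difference passed the threshold with support counted from replicate 1 alone (62.7% outer and 52.3% central; Fisher's exact test, p = 0.00417), and not from replicate 2 alone (39.6% and 36.9%, p = 0.455).

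Peak widths were compared next. The median width on chromosome II was 430 bp (quartiles 300 and 651.5), against 397 bp (259 and 607) on the other chromosomes pooled. Medians were also higher on chromosome II in replicate 1 (408 bp, against 373 bp elsewhere) and in replicate 2 (513 bp, against 470 bp). Among single chromosomes only X had a higher median in any of the lists, at 497 bp in the combined list. These medians were not tested. Peaks of at least 1000 bp made up 9.57% (73 of 763, exact 95% interval 7.57 to 11.9), against 8.35% elsewhere and 8.51% over all combined peaks, a difference short of the threshold (Fisher's exact test, adjusted p = 0.312).

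Width went with support and strength. The 1 bp overlap that defined support is met more easily by a wide peak, and the part of this was not tested. The median width was 676 bp, and the median −log10 q 19.8, where both replicates supported the peak. Those with support in neither had 328.5 bp and 4.33, and those found in replicate 1 only had 371.5 bp and 6.59. All 16 peaks of 2000 bp or more, the wide region aside, had support in both replicates, as did 47 of the 57 from 1000 to under 2000 bp (82.5%). None of the 57 peaks from 50 to under 200 bp had it, nor of the 13 below 50 bp. Of these 13, which went down to 1 bp, 12 had support in neither replicate. Width and −log10 q of the 763 peaks had a Spearman's rho of 0.69, again as a description.

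**Figure D4:**
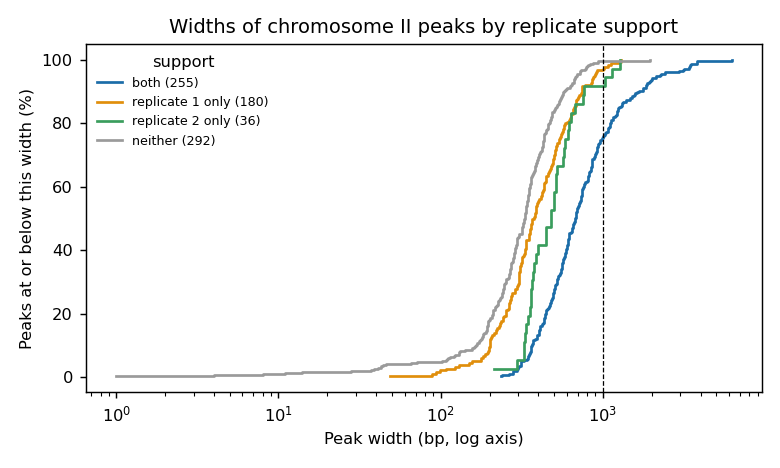
Cumulative share (%) of chromosome II combined peaks by width (bp, log axis), in 4 classes of replicate support with the number of peaks in brackets, without the wide region. The curve for support in both replicates (median 676 bp) lies to the right of that for neither (median 328.5 bp), and the dashed line marks 1000 bp.

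The 5 widest regions after the wide one were 3455 to 6224 bp long, and all had support in both replicates. The widest, from 11615618 to 11621841, had a −log10 q of 74.9 and covered 2 peaks of each replicate, of at most 35.7 in replicate 2 and 25.4 in replicate 1. The region from 11634020, in the same outer part, was the third widest at 3795 bp. The others ran from 6345259 to 6349061 (107.7), from 10547664 to 10551175 (36.4) and from 9618884 to 9622338 (46.3), all central. Broad peaks were no more frequent in the outer parts, where 34 of 346 (9.83%) reached 1000 bp, against 39 of 417 (9.35%) in the centre (Fisher's exact test, adjusted p = 0.902). Strong peaks were thus concentrated in the outer parts, mainly the right one. A difference in broad peaks was not detectable with 73 of them.

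Combined peaks mostly had higher deposited values than the replicate peaks they overlapped. Depth and caller settings of the lists are unknown, so this describes the deposited values only. At the 255 regions with support in both, the combined −log10 q was above both replicate values at 251 (98.4%), by a median factor of 1.78 over the higher replicate. The combined peak was also wider than both replicate peaks at 191 (74.9%).

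In the combined list, neighbouring peaks on chromosome II were far apart compared with other chromosomes. The median gap was 9.10 kb (quartiles 2.54 and 27.2), against 6.28 kb elsewhere, where single chromosomes ranged from 5.23 to 8.31 kb. Gaps of at most 2000 bp made up 161 of 763 (21.1%, exact 95% interval 18.3 to 24.2), against 1503 of 5564 (27.0%, 25.8 to 28.2) elsewhere and 26.3% over all chromosomes. The difference passed Fisher's exact test (adjusted p = 0.00156). Chromosome II also had fewer peaks per Mb than 4 of the other 5, and the part of density in the difference was not tested. On X, where density was lower (47.8 per Mb), 22.6% of the gaps were as short. Replicate 1 gave 17.3%, against 21.4% elsewhere (Fisher's exact test, p = 0.0359), and replicate 2 gave 15.4%, against 18.7% (p = 0.183). In both replicates the share on X was lower than on chromosome II, at 13.9% in replicate 1 and 14.4% in replicate 2. The median gap on X was longer in replicate 1 (18.5 kb, against 14.7 kb on chromosome II) and shorter in replicate 2 (20.7 kb, against 26.8 kb).

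Joined by gaps of at most 2000 bp, 278 of the 764 peaks (36.4%) had at least 1 neighbour and 486 stood alone. There were 89 pairs and 28 groups of 3 or more, which together held 100 peaks (13.1%). Grouped peaks were wider than single ones (median 487 and 397 bp) and more often had support in both replicates (113 of 278, 40.6%, and 142 of 485, 29.3%), a difference that was not tested. The largest group had 7 peaks within 9071 bp, from 6836149 to 6845219. Its strongest member, from 6842293 to 6843303, had a combined −log10 q of 44.7, against which replicate 1 had 21.4 and replicate 2 had 31.5. Of the other 6 members, 1 had support in both replicates and 5 in neither.

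One region of chromosome II stood apart by its width. The combined list placed it from 6939193 to 6962185, a length of 22993 bp, against 6224 bp for the next widest on the chromosome. Replicate 1 had it from 6939248 to 6962079 (22832 bp) and replicate 2 from 6942729 to 6961697 (18969 bp). The edges of the combined and replicate 1 regions differed by 55 bp on the left and 106 bp on the right. In replicate 2 the left edge lay 3536 bp further in and the right edge 488 bp further in, so that 82.5% of the combined region was covered. It was called as 1 unbroken peak in all 3 lists. By itself it made up 5.12% of the bases covered by combined peaks on chromosome II, 8.63% of those of replicate 1 and 8.23% of those of replicate 2.

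Its significance was moderate for its size. The −log10 q was 21.6 in replicate 1, where it ranked 48 of 476 peaks on the chromosome, and 10.5 in replicate 2, where it ranked 105 of 306. In the combined list it was 20.2, at rank 125 of 764. All 16 other combined peaks of 2000 bp or more were more significant, with a median of 62.2. In replicate 2 the same held for all 12 such peaks, and in replicate 1 for 5 of 6. The combined value was lower than that of replicate 1, unlike at 251 of the 255 other regions with support in both replicates, where it was above both.

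**Figure D5:**
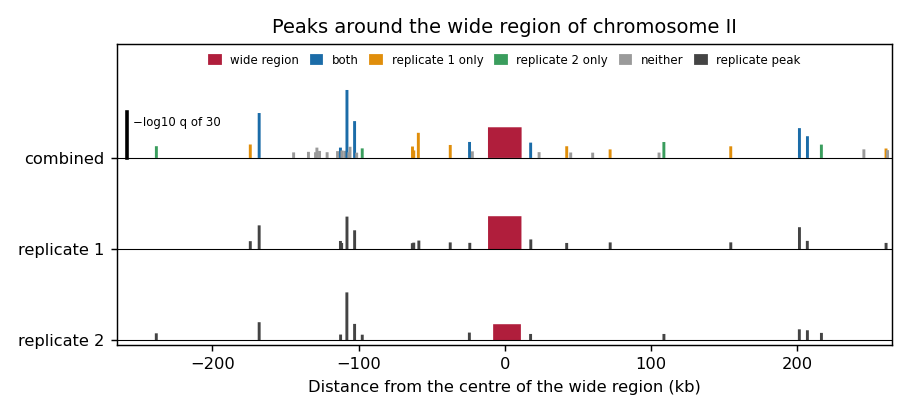
Peaks within 250 kb of the wide region, by distance from its centre (kb), in the combined list (coloured by support) and each replicate list. Bar height is proportional to −log10 q (scale bar, 30) and bar width to peak width, with peaks under 2 kb drawn at 2 kb. The wide region is low and unbroken in all 3 lists, and the tallest bar, of 44.7 in the combined list, stands in the group of 7 peaks to its left.

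The nearest neighbours of the wide region were narrower and less significant than it. They lay on both sides of the chromosome II medians, which were 430 bp and a −log10 q of 6.63. On the left the nearest combined peak, from 6928418 to 6928615, was 10577 bp away, had a −log10 q of 4.33 and no support. The next, from 6926127 to 6927060, had 10.5 and support in both replicates (4.10 in replicate 1 and 5.04 in replicate 2), and the third, from 6913298 to 6913526, had 8.53 and support in replicate 1 only. On the right the nearest, from 6968078 to 6968660, was 5892 bp away and had 10.1, with 6.35 in replicate 1 and 4.13 in replicate 2. It was followed by an unsupported peak from 6974050 to 6974221 (3.80) and a peak from 6992840 to 6993197 (7.69) seen in replicate 1 only. All 6 of these neighbours were therefore narrower than 1000 bp and less significant than the wide region. Each trait was shared by most chromosome II peaks, of which 9.57% reached 1000 bp and 16.2% were more significant than the wide region.

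The surroundings were denser than the chromosome in the combined list and less so in the replicate lists. Within 50 kb on either side there were 9 combined peaks, 1.80 times the number given by the mean density of the chromosome, with 5 in replicate 1 (1.60 times its mean) and 2 in replicate 2 (0.999 times). Within 100 kb there were 22 combined peaks (2.20 times), 11 in replicate 1 (1.76 times) and 6 in replicate 2 (1.50 times), the highest ratios of the 3 distances in each list. Within 250 kb on either side there were 40 combined peaks, 1.60 times the number at the mean density, with 25 on the left and 15 on the right. Replicate 1 had 18 (1.15 times its mean) and replicate 2 had 12 (1.20 times). Of the 40 combined peaks, 19 (47.5%) had support in neither replicate, against 38.3% on chromosome II and 35.7% over all combined peaks. This difference was not tested. The 8 peaks with support in both were 0.956 times the number at their mean density. The window from 6.75 to 7 Mb, which holds the wide region, was the densest of the 61 full windows of 250 kb, with 29 combined peaks against a median of 13.

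Most peaks on the left lay in 1 stretch, which was chosen after its values were seen. Between 6806261 and 6853410 there were 16 combined peaks in 47.1 kb, of which 12 had support in neither replicate, and the replicates had 4 peaks each. The stretch ended 85.8 kb from the wide region and included the group of 7 described above. Its median −log10 q was 4.65, near the lower limit of the list (3.31). It began with 7 successive unsupported peaks, a run matched on chromosome II only by that from 5892565 to 5931347. The high count of the stretch thus came mainly from weak peaks found in the combined list alone.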

How the data were processed

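The authors used PeakSeq and coordinates of WormBase WS180, per the file headers and the source column. Each peak has a q-value (a p-value adjusted by the caller) and a first and last base, as the authors deposited them. Read alignment, caller parameters, the cut-off on q and how both replicates entered the combined list were steps not given in the sources used here. Input libraries were not analysed here.

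The −log10 of each deposited q-value was taken from its decimal text and used to rank peaks within a list. Comparisons of its size between lists are descriptions only, because depth and caller settings are unknown. Support was an overlap of at least 1 bp. Shares have exact (Clopper-Pearson) 95% intervals, which cover counting error only. Position was tested by an exact binomial test and other shares by Fisher's exact test, all two-sided, with Benjamini-Hochberg adjustment over 7 tests. These tests count each peak as independent, so clustered peaks make their p-values too small. Chromosome length was the span of all called peaks. Overlap, position and gap steps were tested on simulated peaks. The tools were pandas 2.3.3, NumPy 2.4.6, SciPy 1.17.1 and matplotlib 3.10.9 under Python 3.11.15.

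The members, tests and alternatives were chosen with earlier results of these data known. The regions named were the peak wider than 20 kb with its 3 nearest neighbours on either side, the 10 most significant peaks with support in both replicates, the 5 widest others, the 3 densest and 3 sparsest windows of 1 Mb, the largest group of neighbours, and replicate peaks that exceeded a −log10 q of 100 but had no combined counterpart. Other named regions were chosen after their values were seen. Genes and sequences at the peaks are not given, because a WS180 sequence or annotation was not used here and the gene table at hand is on WBcel235.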

Additional observations from a re-analysis of the deposited data

How the results depend on the processing

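Of 51 values recomputed under an alternative setting, 36 kept their direction and call, or stayed within the counting interval where there was no test. Support in both replicates on chromosome II was 40.7% when each list was limited to its more significant 50%, above the other chromosomes. Counted from a single replicate, which is a looser measure, support was 38.1% with replicate 2 and 57.0% with replicate 1. Both stayed below the other chromosomes, at 44.1% and 59.6%. The outer share was 48.2% to 50.5% with either replicate left out, 48.6% in the 50% of lowest q, 50.2% in peaks with support in both and 48.4% with 1 peak per group of gaps up to 5000 bp. Outer peaks had support in both replicates in 46.8% in the 50% of lowest q, past the threshold. With support counted from a single replicate, the outer share was 39.6% with replicate 2 and 62.7% with replicate 1. The outer share of the strongest 10% was 69.2% among peaks with support in both (Fisher's exact test, p = 0.0609). Broad peaks of at least 1500 bp were 4.05% of outer and 4.32% of central peaks, the opposite direction. Close gaps were 15.4% to 17.3% with either replicate left out, 15.4% in the 50% of lowest q and 12.2% in peaks with support in both, and of these only replicate 1 alone kept the call. The share of peaks within 250 kb of the wide region was 5.24%, and 3.14% among peaks with support in both. The cause of these changes was not tested. No paired analysis was possible because no peak list of the input samples, which share replicate numbers with the ChIP samples, was used here. With depth unknown, a peak called in 1 replicate only may have been missed in the other.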
